A study of Homo sapiens with 29 samples.

Results

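The subject of these data is how far the response of RPE1 cells to an inhibitor of Mps1 changed from one experiment to the next. Of 10577 genes measured in both experiments, 38 responded differently, and they were chosen in a defined way. The difference between Mps1i and DMSO had to differ between the experiments past the threshold of a test fitted over all genes (edgeR's quasi-likelihood test, adjusted p under 0.05), and in log2 CPM (counts scaled to a common library total) it had to differ in one direction in both pairs of libraries. The 38 genes made up 0.359% of the genes tested. In 17 of them (0.161% of the genes tested) the response was higher in experiment 2, and in 21 (0.199%) it was higher in experiment 1.

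RPE1 is a telomerase-immortalised human line from retinal pigment epithelium, here carrying fluorescent reporters used for visual cell sorting, in which single cells are light-activated under the microscope and then collected by flow cytometry. Cells were kept for 24 h in DMSO, the solvent, or in BAY1217389 (Mps1i, 100 nM), and by the study's methods all cells received the Cdk1 inhibitor RO-3306 before imaging. In each of 2 experiments, done on different days, random cells of either treatment were activated with a 200 ms or an 800 ms UV pulse and sorted into separate libraries, which gave 8 libraries, 2 for each treatment and experiment. Another 8 libraries, from experiments 3 and 4, came from Mps1i-treated cells sorted by whether they had a micronucleus (MN+ or MN-), and played no part in the choice of genes. By the study, the pulse libraries of a treatment and experiment are technical replicates, so each treatment and experiment holds 1 experimental replicate, and p-values measure only the spread between technical replicates.

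Mps1, also named TTK, is a kinase of the spindle assembly checkpoint, which delays anaphase until the kinetochores of all chromosomes hold microtubules. Cells without its activity divide too early and missegregate chromosomes, and the aneuploid daughters of cells with intact p53 commonly raise p53 targets and lower genes of the next mitosis. Several of the genes described here belong to programs that also react quickly to growth factors, nutrients and culture conditions: the AP-1 transcription factors, secreted inflammatory factors, the NRF2 antioxidant response and the stress response that runs through ATF4.

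Total estimated counts ranged from 65608678 to 74914744 in experiment 1 and from 133622809 to 145242185 in experiment 2, so the day of the experiment and the depth of sequencing cannot be told apart. Mitochondrially encoded genes took 0.911 to 1.11% of the counts, and the 10 most abundant genes took 7.02 to 7.26%. Of 16 markers of RPE-1 and pigment epithelium, 7 were in the table (KRT7, KRT8, KRT18, CDH2, TJP1, MITF and OTX2, with a summed level of 1677 to 1950 CPM), while none of 8 genes of epithelial adhesion, 1 of 13 of blood and immune cells (CD68, 70.04 to 81.3 CPM) and 3 of 9 of endothelial and neural cells were. RPE65, a defining enzyme of pigment epithelium in the eye, was not in the table. Of the 38 genes, 30 had at least 700 counts in all 8 libraries, as did 8841 of all genes. The other 8 reached that level in some libraries only: RNF19B, NFIX, HECA, KANSL1, FOS, RGPD5, ENSG00000262599 and ENSG00000226882.

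The number of genes rested on single libraries. It was 99 without the 800 ms DMSO library of experiment 1, 20 without the 800 ms Mps1i library of that experiment, 13 and 12 without the 200 ms and 800 ms DMSO libraries of experiment 2, and 13 and 15 without the 200 ms and 800 ms Mps1i libraries of experiment 2. HMOX1, STC2, IL11, RNF19B, TRIO, GNAS, LXN and ENSG00000262599 were called in all 8 such fits, and ALAS1 in none. ENSG00000262599 is uncertain all the same, with 66 and 92 counts in the DMSO libraries of experiment 1 and 414 and 457 in its Mps1i libraries. At an unadjusted p under 0.05 the test marked 1330 genes.

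Sequences before the start of transcription are shown for members of both directions. CXCL8, IL11, SERPINB2 and AMIGO2 are the 4 of the 14 genes with a higher response in experiment 2 and a promoter sequence in which TGANTCA, the core motif of AP-1, was found (capitals). Each line holds the 250 bases before the start given by RefSeq, on the gene's strand, on GRCh38.p14.
CXCL8, chr4:73740319-73740568, plus strand: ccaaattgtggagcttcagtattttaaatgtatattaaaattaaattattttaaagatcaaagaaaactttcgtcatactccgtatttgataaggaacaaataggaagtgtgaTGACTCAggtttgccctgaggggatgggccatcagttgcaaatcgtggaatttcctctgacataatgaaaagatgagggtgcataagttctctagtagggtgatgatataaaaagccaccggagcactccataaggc
IL11, chr19:55370464-55370713, minus strand: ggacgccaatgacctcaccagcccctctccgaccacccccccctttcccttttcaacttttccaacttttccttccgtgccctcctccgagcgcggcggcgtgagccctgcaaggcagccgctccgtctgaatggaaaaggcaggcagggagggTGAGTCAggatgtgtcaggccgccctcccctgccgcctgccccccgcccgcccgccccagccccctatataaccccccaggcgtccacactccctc
SERPINB2, chr18:63887455-63887704, plus strand: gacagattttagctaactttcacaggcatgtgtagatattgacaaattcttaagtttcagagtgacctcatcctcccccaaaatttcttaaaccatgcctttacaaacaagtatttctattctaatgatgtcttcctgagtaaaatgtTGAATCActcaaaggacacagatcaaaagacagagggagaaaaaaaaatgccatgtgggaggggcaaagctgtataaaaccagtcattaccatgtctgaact
AMIGO2, chr12:47079952-47080201, minus strand: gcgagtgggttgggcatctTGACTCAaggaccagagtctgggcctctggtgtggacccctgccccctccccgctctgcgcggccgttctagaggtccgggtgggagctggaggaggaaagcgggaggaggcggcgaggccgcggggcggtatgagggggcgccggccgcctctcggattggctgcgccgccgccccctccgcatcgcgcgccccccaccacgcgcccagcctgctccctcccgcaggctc
The motif began 137 bases before the start in CXCL8, 96 in IL11, 102 in SERPINB2 and 231 in AMIGO2. In the wider window from 250 bases before to 50 bases after the start, read on both strands, TGANTCA stood in 4 of those 14 promoters (28.6%), in none of the 15 promoters of genes with a higher response in experiment 1, and in 4.07% of the promoters of all 8409 genes with a sequence. A match of letters is a description, and binding was not measured.

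From the genes with a higher response in experiment 1, CENPF is shown for its CCAAT boxes and GNA11 for its GC boxes. The capitals mark CCAAT in CENPF and GGGGCGGGG, a GC box, in GNA11, on either strand.
CENPF, chr1:214602945-214603194, plus strand: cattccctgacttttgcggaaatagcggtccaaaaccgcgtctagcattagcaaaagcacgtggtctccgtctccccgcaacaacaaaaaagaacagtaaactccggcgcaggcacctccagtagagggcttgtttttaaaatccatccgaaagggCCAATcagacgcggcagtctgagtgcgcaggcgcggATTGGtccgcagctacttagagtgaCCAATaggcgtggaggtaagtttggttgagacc
GNA11, chr19:3094112-3094361, plus strand: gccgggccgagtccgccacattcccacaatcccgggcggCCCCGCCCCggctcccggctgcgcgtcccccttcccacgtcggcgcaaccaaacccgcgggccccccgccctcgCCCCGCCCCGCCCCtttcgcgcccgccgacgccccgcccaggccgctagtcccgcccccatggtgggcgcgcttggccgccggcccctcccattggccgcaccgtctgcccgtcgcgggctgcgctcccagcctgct
CENPF held 3 CCAAT boxes in this stretch, and GNA11 held 3 GC boxes, of which a pair overlapped. CCAAT stood in 42.9% of the promoters of genes with a higher response in experiment 2, in 26.7% of those with a higher response in experiment 1 and in 37.4% of all, and the GC box in 14.3%, 33.3% and 28.2%. GC made up 80.4% of the bases shown for GNA11, against 37.6% in CXCL8 and 37.2% in SERPINB2. Of the other motifs searched, TTTGAA, part of the CHR element of cell cycle genes, was in 2 of 15 promoters with a higher response in experiment 1 (CENPF and NDC80) and in 9.48% of all. TGACGTCA, the cAMP response element, was in the promoters of HECA and NDC80 and in 3.56% of all, and CACGTG, an E-box, in those of SLC20A1, CENPF, CHSY1 and NFIX and in 10.6% of all. The heat shock element was found in none of the members and in 0.274% of all, TGATGNAA, a motif of ATF4, in none and in 1.59%, and GAANNTTC, a shorter part of the heat shock element, in RGPD5 and TRIO and in 4.46%.

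**Figure D1:**
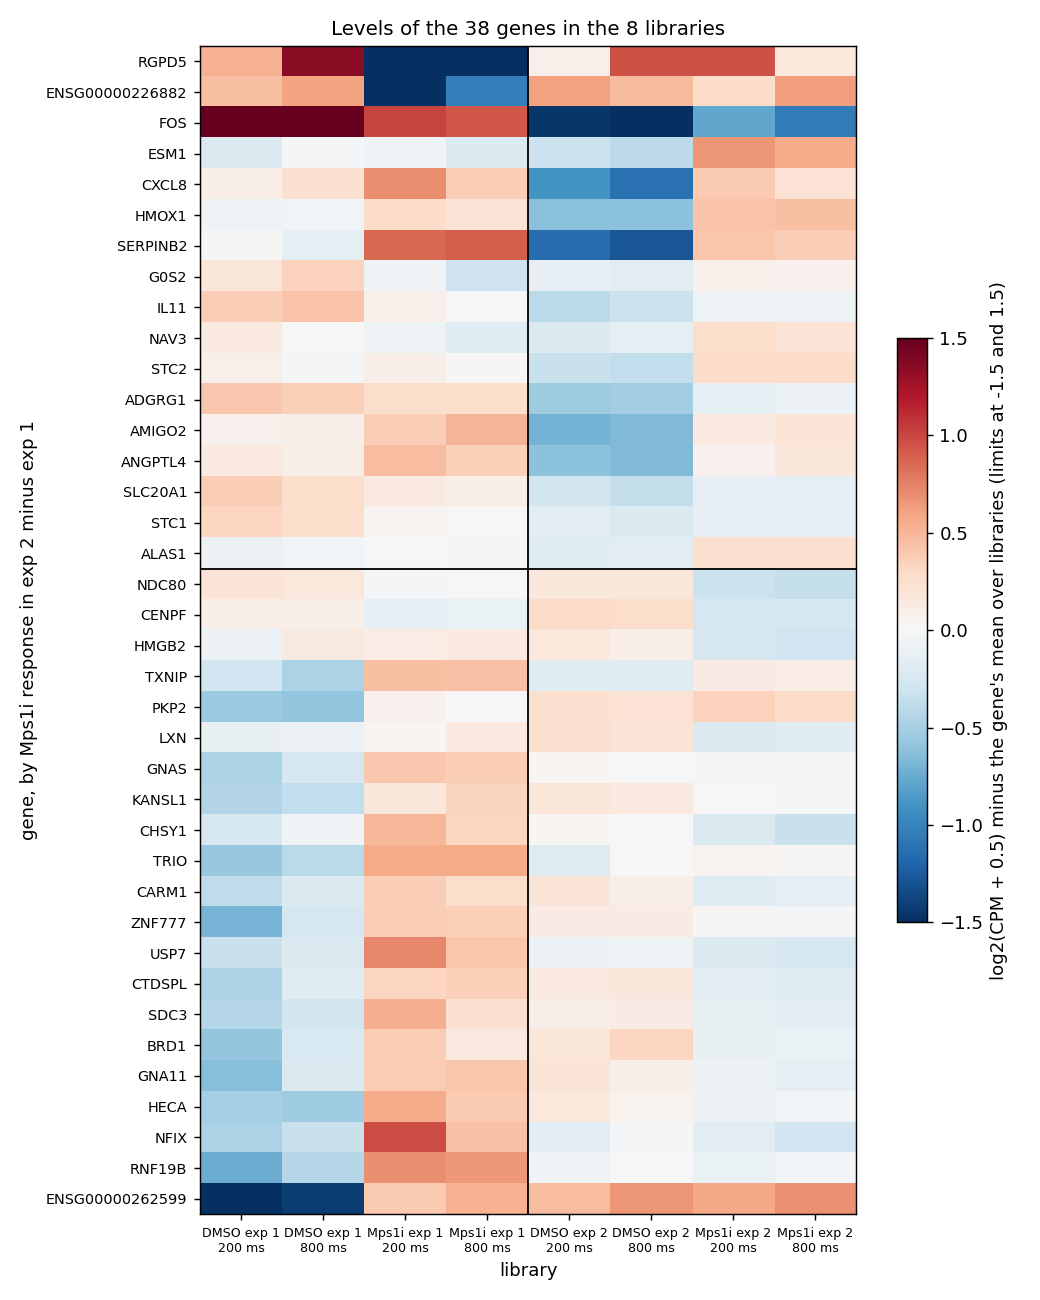
Level of each of the 38 genes (rows) in each of the 8 libraries (columns), as log2(CPM + 0.5) minus the mean of the gene over the libraries, with colours limited at -1.5 and 1.5. The line between rows divides the 17 genes with a higher response in experiment 2 from the 21 with a higher response in experiment 1. Most of the lower rows are pale in the libraries of experiment 2, unlike ENSG00000262599 in the bottom row.

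The genes with a higher response in experiment 2 started, for the most part, from a lower level in DMSO. Among these 17, DMSO levels were lower in experiment 2 past the threshold in 12 and higher in none, in a comparison that called 559 of all genes (5.29%). Mps1i levels differed between the experiments in 13, with 7 higher and 6 lower in experiment 2, in a comparison that called 1325 of all genes (12.5%). The shift between the experiments was larger in DMSO than in Mps1i in 12 of the 17. The 21 genes with a higher response in experiment 1 showed the reverse in DMSO, with 15 called, all 15 higher in experiment 2. Their Mps1i levels were called in 17, with 1 higher in experiment 2, and the DMSO shift was the larger in 9 of the 21. These shifts are parts of the contrast that chose the genes and describe it without supporting it.

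HMOX1 (ENSG00000100292, chr22:35380361-35394214, plus strand) encodes heme oxygenase 1, which degrades heme and is a classical NRF2 target. It stood at 100.4 and 102 CPM in the DMSO libraries of experiment 1 and at 127 and 122 CPM in its Mps1i libraries. In experiment 2 it stood at 67.8 and 68.8 CPM in DMSO and at 142 and 144 CPM in Mps1i. The DMSO libraries of experiment 2 were the lowest of the 8 and its Mps1i libraries the highest, so that a log2 fold change of 0.30 ± 0.0447 (SE, n = 2 libraries per group) in experiment 1 became 1.06 ± 0.0445 in experiment 2. The difference between the responses, 0.77 ± 0.0628 on the log2 scale, had the smallest adjusted p of the 38 genes by edgeR (0.00191). ALAS1, the rate-limiting enzyme of heme synthesis, went from 93.2 and 94.0 to 124 and 124 CPM in experiment 2, while in experiment 1 its 4 libraries lay between 99.5 and 106 CPM.

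STC2 and STC1 encode stanniocalcins, secreted glycoproteins, and STC2 is a target of ATF4. STC2 was at 567 and 527 CPM in DMSO and at 571 and 543 CPM in Mps1i in experiment 1. In experiment 2 it was at 424 and 414 CPM in DMSO and at 646 and 647 CPM in Mps1i. The groups of experiment 1 overlapped and those of experiment 2 lay further apart than any pair within a group, with a response of 0.03 ± 0.0450 and of 0.63 ± 0.0450. STC1 moved the other way on the inhibitor: it fell by 0.28 ± 0.0419 on the log2 scale in experiment 1, from 316 and 304 to 258 and 252 CPM, and had a value of 0.07 ± 0.0416 in experiment 2, with 216 to 232 CPM in its 4 libraries.

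FOS, IL11 and SLC20A1 were called in both experiments with opposite signs. FOS (ENSG00000170345, chr14:75278826-75282230, plus strand), an immediate early gene and subunit of AP-1, was at 51.5 and 47.5 CPM in DMSO and at 31.9 and 30.1 CPM in Mps1i in experiment 1. In experiment 2 it was at 5.33 and 3.65 CPM in DMSO and at 8.80 and 7.26 CPM in Mps1i. Every library of experiment 1 was above every library of experiment 2, and DMSO levels fell by 3.46 ± 0.154 on the log2 scale from experiment 1 to experiment 2, a larger step than either response (-0.68 ± 0.138 and 0.84 ± 0.151). FOS had 520 to 1287 counts in the libraries of experiment 2.

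IL11, a cytokine of the IL-6 family, was at 94.8 and 98.1 CPM in DMSO and at 77.1 and 73.6 CPM in Mps1i in experiment 1, and at 55.0 and 58.2 CPM and then 69.4 and 69.1 CPM in experiment 2. Its log2 fold change was -0.36 ± 0.0508 in experiment 1 and 0.29 ± 0.0501 in experiment 2. The Mps1i libraries of both experiments lay within 69.1 to 77.1 CPM, while the DMSO libraries lay above them in experiment 1 and below them in experiment 2. SLC20A1, a sodium-dependent phosphate transporter, showed the same order with smaller steps: -0.20 ± 0.0457 in experiment 1 and 0.18 ± 0.0456 in experiment 2.

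SERPINB2, AMIGO2, ANGPTL4 and HMOX1 rose in both experiments and rose further in experiment 2. SERPINB2, a protease inhibitor that blocks urokinase, was at 44.2 and 39.5 CPM in DMSO and at 79.6 and 82.3 CPM in Mps1i in experiment 1. In experiment 2 it was at 19.6 and 17.6 CPM in DMSO and at 58.4 and 56.7 CPM in Mps1i, a log2 fold change of 1.63 ± 0.0709 against 0.95 ± 0.0701. Here the level on the inhibitor was lower in experiment 2 and the level in DMSO was lower still. AMIGO2, an adhesion molecule, rose by 0.37 ± 0.0499 and 0.86 ± 0.050 on the log2 scale, and ANGPTL4, a secreted inhibitor of lipoprotein lipase, by 0.30 ± 0.0548 and 0.76 ± 0.0546.

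CXCL8, ESM1, STC2, ALAS1, NAV3 and ADGRG1 passed the threshold in experiment 2 and not in experiment 1, and for each of them the difference between the experiments is what the test had called. CXCL8, the neutrophil chemokine IL-8, was at 52.7 and 58.1 CPM in DMSO and at 79.9 and 63.5 CPM in Mps1i in experiment 1, and at 26.2 and 22.4 CPM and then 64.4 and 57.3 CPM in experiment 2. Its response in experiment 1, 0.37 ± 0.111 on the log2 scale, lay just outside the threshold (adjusted p = 0.0562 by edgeR), against 1.33 ± 0.112 in experiment 2. ESM1, a secreted proteoglycan, was at 10.9 to 14.2 CPM in 6 libraries and at 23.1 and 21.5 CPM in the Mps1i libraries of experiment 2 alone. NAV3, a cytoskeletal protein, and ADGRG1, an adhesion receptor coupled to G proteins, had responses of 0.41 ± 0.0698 and 0.41 ± 0.0494 in experiment 2, against -0.21 ± 0.0724 and -0.11 ± 0.0498 in experiment 1. G0S2, an inhibitor of triglyceride lipase, belonged with STC1 to the genes that fell in experiment 1 (by 0.44 ± 0.0771 on the log2 scale), and its value in experiment 2 was 0.22 ± 0.0764, which did not pass.

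**Figure D2:**
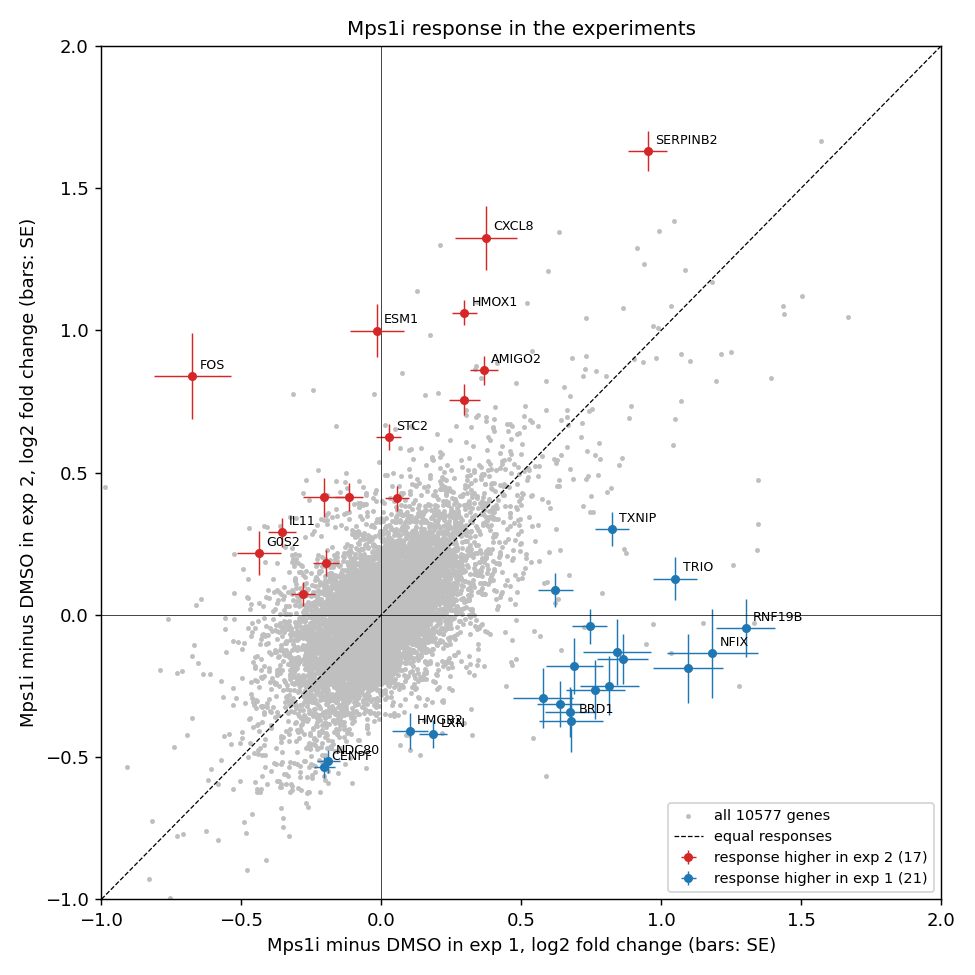
Log2 fold change of Mps1i over DMSO in experiment 1 (x axis) and experiment 2 (y axis), with every gene in grey, the 17 genes with a higher response in experiment 2 in red and the 21 with a higher response in experiment 1 in blue, bars giving the SE. Axes run from -1 to 2 and leave out 21 genes, 3 of them members. Most blue points lie along y values near 0 with x values above 0.5, and red points spread over the upper left.

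The largest group with a higher response in experiment 1 rose in that experiment and did not pass the threshold in experiment 2. It held 13 of the 21 genes: RNF19B, NFIX, HECA, GNA11, SDC3, USP7, ZNF777, TRIO, CHSY1, KANSL1, GNAS, PKP2 and ENSG00000262599. For comparison, the response was called in 1204 genes in experiment 1 (11.4%) and in 1819 in experiment 2 (17.2%), so fewer genes overall passed in the experiment in which these did. The median log2 CPM of the 13, taken from each gene's mean over the 8 libraries, was -0.55 and -0.34 in the DMSO libraries of experiment 1 and 0.52 and 0.41 in its Mps1i libraries. In experiment 2 it was 0.11 and 0.06 in DMSO and -0.08 and -0.04 in Mps1i. By these medians both treatments of experiment 1 stood away from experiment 2, DMSO below it and Mps1i above it. PKP2 and ENSG00000262599 were exceptions, with Mps1i levels lower in experiment 1 than in experiment 2. In PKP2 these were 28.7 and 27.4 CPM against 35.0 and 33.3 CPM. The genes were chosen from the same libraries, so the medians describe the choice without supporting it.

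RNF19B (ENSG00000116514, chr1:32936445-32964809, minus strand), an E3 ubiquitin ligase, was at 8.21 and 10.3 CPM in DMSO and at 23.1 and 22.4 CPM in Mps1i in experiment 1, and at 13.1 to 14.1 CPM in the 4 libraries of experiment 2. Its response was 1.30 ± 0.106 and -0.05 ± 0.101 on the log2 scale. TRIO, a guanine nucleotide exchange factor, was at 25.3 and 28.4 CPM in DMSO and at 55.5 and 55.5 CPM in Mps1i in experiment 1, and at 32.8 to 38.8 CPM in experiment 2. In both genes the 4 libraries of experiment 2 fell between the DMSO and the Mps1i libraries of experiment 1.

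GNAS and GNA11 encode alpha subunits of G proteins that signal to adenylyl cyclase and to phospholipase C. GNAS (ENSG00000087460, chr20:58839718-58911192, plus strand) was at 287 and 335 CPM in DMSO and at 527 and 515 CPM in Mps1i in experiment 1, and at 391 to 407 CPM in experiment 2. GNA11 was at 57.6 and 77.1 CPM in DMSO and at 117 and 119 CPM in Mps1i in experiment 1, and at 102 and 95.1 CPM and then 84.6 and 81.5 CPM in experiment 2. The step between DMSO and Mps1i in experiment 1 was wider than the gap between the pulse libraries in both genes, although the DMSO libraries of GNA11 differed more from each other than those of GNAS.

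Among the others, NFIX is a transcription factor of the nuclear factor I family, USP7 a deubiquitinase of MDM2 and p53, SDC3 a heparan sulfate proteoglycan, CHSY1 a chondroitin sulfate synthase, KANSL1 a scaffold of a histone acetyltransferase complex, ZNF777 a zinc finger protein and PKP2 a desmosomal protein. Their responses in experiment 1 lay between 0.58 ± 0.108 (CHSY1) and 1.18 ± 0.162 (NFIX). PKP2 differed in its levels, with 18.4 and 18.02 CPM in the DMSO libraries of experiment 1 and 27.4 to 35.0 CPM in the other 6. NFIX rested on pulse libraries that differed, at 23.5 and 15.9 CPM in Mps1i of experiment 1.

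BRD1, CARM1, CTDSPL and LXN were called with opposite signs, upward in experiment 1 and downward in experiment 2. BRD1 is a bromodomain scaffold of histone acetyltransferases, CARM1 an arginine methyltransferase and CTDSPL a phosphatase, and their log2 fold changes were 0.68 ± 0.116, 0.64 ± 0.0840 and 0.68 ± 0.0901 in experiment 1 against -0.37 ± 0.110, -0.32 ± 0.0808 and -0.34 ± 0.0865 in experiment 2. LXN, latexin, an inhibitor of carboxypeptidases, was at 112 and 113 CPM in DMSO and at 123 and 133 CPM in Mps1i in experiment 1, and at 142 and 137 CPM and then 103 and 106 CPM in experiment 2. Both the highest and the lowest libraries of LXN came from experiment 2.

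**Figure D3:**
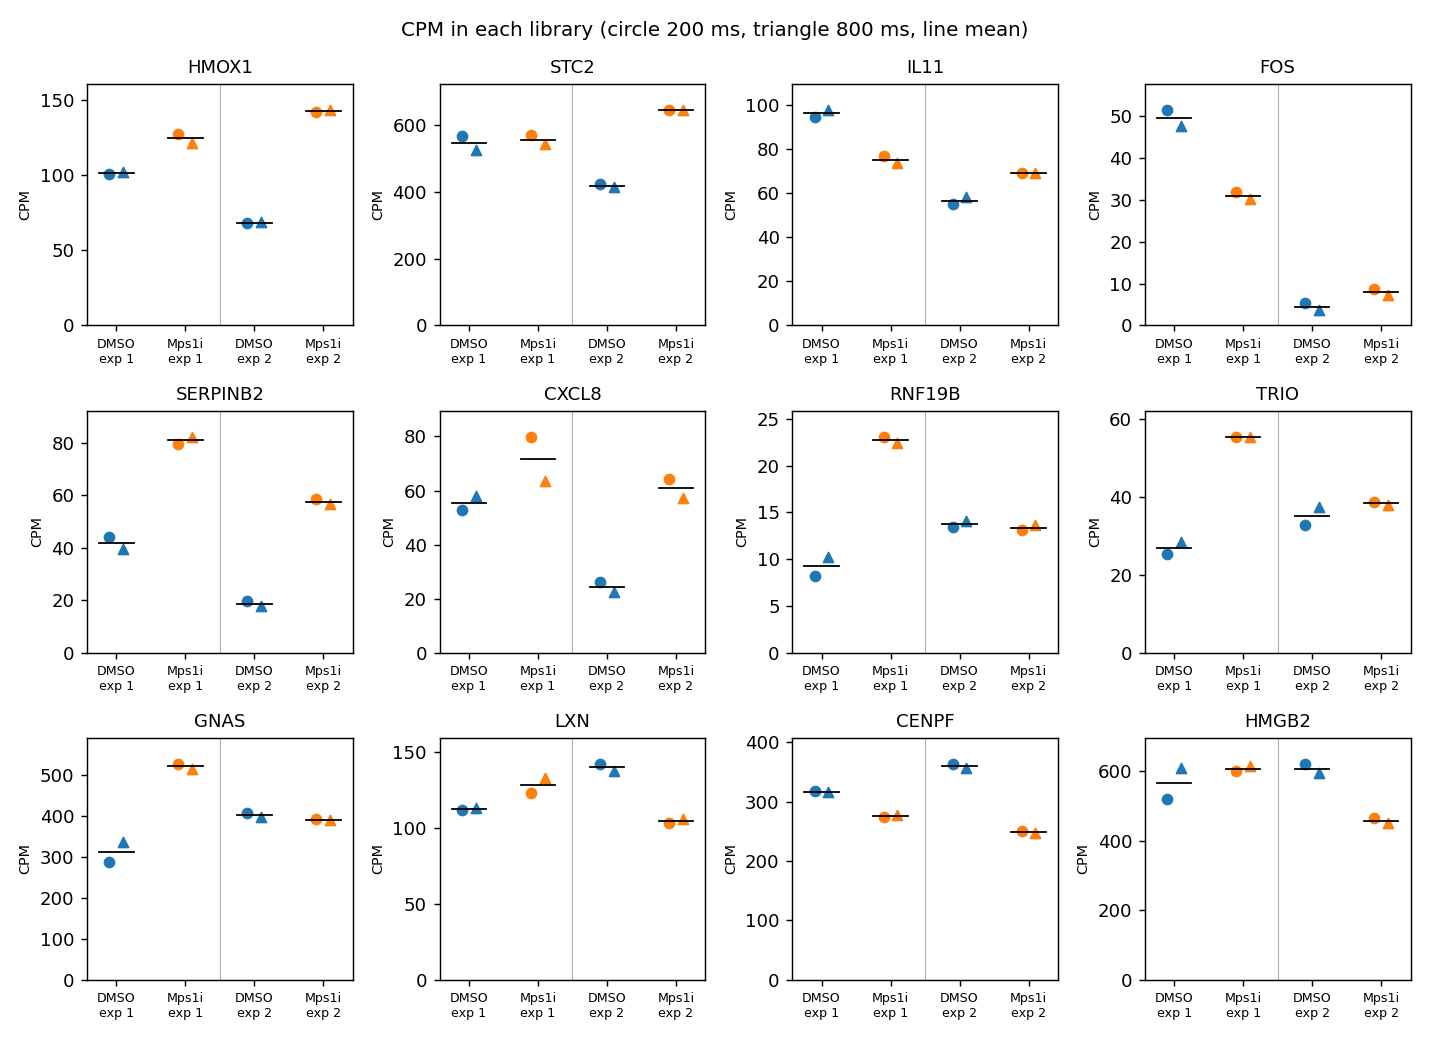
CPM of 12 of the genes in each library, with DMSO in blue, Mps1i in orange, the 200 ms library as a circle, the 800 ms library as a triangle and the mean of the pair as a line. RNF19B, TRIO and GNAS sit at like levels in the 4 libraries of experiment 2, whereas HMOX1, STC2 and CXCL8 spread further in experiment 2.

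Many of the genes with a higher response in experiment 1 had transcripts with a very GC-rich stretch, a pattern noticed after their values were seen and given with no test. In the GENCODE v44 canonical transcripts, the 200-base window richest in GC had a median of 89% GC in the 20 such genes with a transcript, 89.8% in the 12 called in experiment 1 only, 69.2% in the genes with a higher response in experiment 2 and 69% in all 10280 genes. The first 300 bases of the transcript had a median GC of 76.8%, 79.7%, 63.3% and 62% in the same order, and over the whole transcript the medians were 51.2%, 54.8%, 48.2% and 47.4%. The difference lay in a stretch of the transcript more than in its overall composition.

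Of the 38 genes in the whole table with a window of at least 90% GC, 9 were members (23.7%), against 27 of 10242 genes below that level (0.264%). The 9 were NFIX, GNA11, BRD1, SDC3, CTDSPL, USP7, CARM1, CHSY1 and GNAS, and in all 9 the response was higher in experiment 1. In each of the 9 the difference was larger in the 200 ms pair than in the 800 ms pair (-1.51 and -1.07 in NFIX, -1.12 and -0.93 in CTDSPL). The Mps1i libraries of experiment 1 had opposite trends with GC. The median of the fifth of genes richest in GC minus that of the poorest was 0.0747 at 200 ms and -0.0650 at 800 ms. The part of these trends in the 9 genes was not tested. Over the 38 genes the median difference of the responses was -0.12 on the log2 scale, with 15 lower and 3 higher at an unadjusted p under 0.05. In 20 of them it was below 0 in both pulse pairs and in 7 above 0 in both.

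The trend over all genes ran the other way below that level. The median difference of the responses was -0.05 in genes whose richest window had under 60% GC, 0.03 between 70 and 80%, 0.06 between 80 and 85% and 0.07 between 85 and 90%. Offsets for transcript length, GC content and the GC of that window were fitted for each library, an alternative chosen after seeing the data. With them, 9 of the 9 genes and 37 of the 38 members were still called, with NDC80 as the exception (adjusted p = 0.113 by edgeR). The offsets are smooth curves over 10280 genes, 38 of them at or above 90%, and need not follow the drop there. These calls therefore cannot decide whether the values of the 9 genes depend on GC. The authors had corrected for GC bias when they estimated the counts, and the part of that step in these values was not tested. Among the MN libraries, 11 of the 38 GC-rich genes were called higher in experiment 4 and 6 higher in experiment 3, with a median difference of 0.06, where 18.4% and 15.6% of all genes were called.

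**Figure D4:**
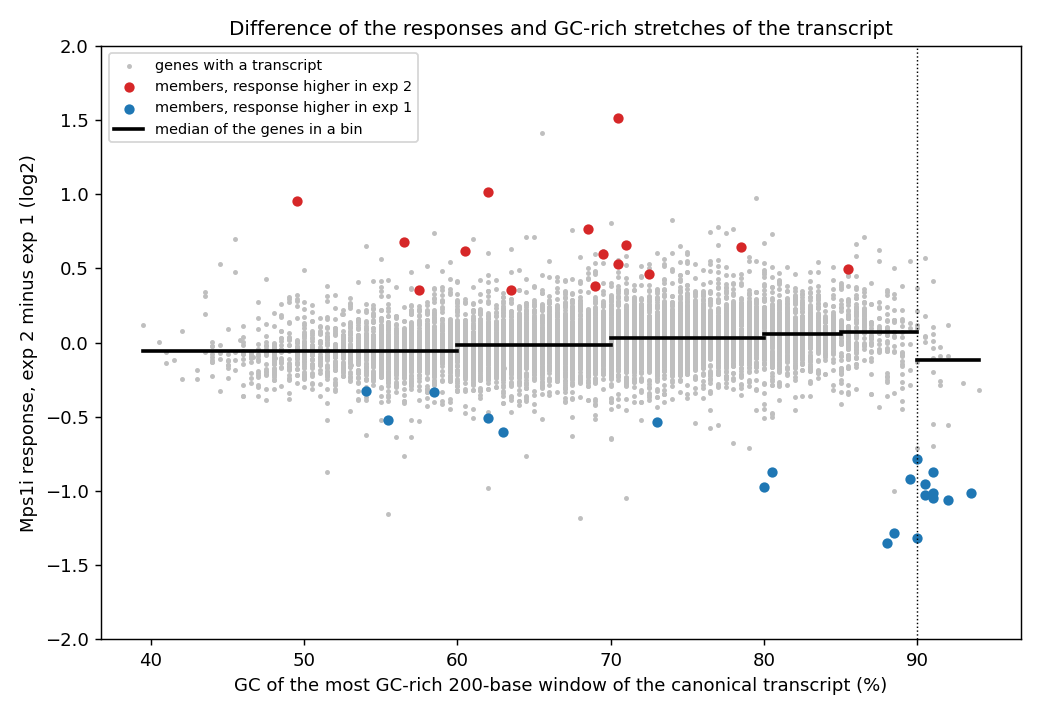
Difference of the Mps1i responses (experiment 2 minus experiment 1, log2, y axis) against the GC of the most GC-rich 200-base window of the canonical transcript (x axis, percent), with all genes in grey, members in red and blue and the median of the genes in each bin as a black line. The y axis runs from -2 to 2 and leaves out 6 genes, 1 of them a member, and 2 members have no transcript. To the right of the dotted line at 90% the median drops to -0.12 and 9 of the 38 genes are members.

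CENPF and NDC80, which both act at the kinetochore in mitosis, fell in both experiments and fell further in experiment 2. CENPF was at 318 and 317 CPM in DMSO and at 274 and 277 CPM in Mps1i in experiment 1, and at 364 and 358 CPM and then 251 and 247 CPM in experiment 2. NDC80 was at 238 and 230.3 CPM in DMSO and at 204 and 207 CPM in Mps1i in experiment 1, and at 232 and 232 CPM and then 165 and 161 CPM in experiment 2. The groups did not overlap in either gene in either experiment. CENPF fell by 0.20 ± 0.0374 and by 0.54 ± 0.0372 on the log2 scale, and NDC80 by 0.19 ± 0.0403 and by 0.51 ± 0.0400.

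HMGB2, a chromatin protein abundant in dividing cells, was at 521 and 609 CPM in DMSO and at 599 and 615 CPM in Mps1i in experiment 1, and at 621 and 593 CPM and then 464 and 450 CPM in experiment 2. It was the only gene with a higher response in experiment 1 that was called in experiment 2 alone, as a fall of 0.41 ± 0.0632 on the log2 scale. TXNIP, which binds thioredoxin and responds to glucose, rose in both experiments, by 0.83 ± 0.0609 in experiment 1 (from 75.8 and 66.1 to 126 and 126 CPM) and by 0.30 ± 0.0594 in experiment 2 (from 81.0 and 81.4 to 101 and 99.3 CPM).

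All 60 genes of a list of G2 and mitosis were measured, and their median log2 fold change was -0.26 in experiment 1 and -0.50 in experiment 2. In experiment 1, 51 of them were called lower, in experiment 2, 58, and none was called higher in either. Of all genes, 600 (5.67%) were called lower on Mps1i in experiment 1 and 859 (8.12%) in experiment 2. The median difference of the responses was -0.21, against 0.00 over all genes, with 2 of 60 past the threshold and 37 of 60 lower at an unadjusted p under 0.05, where 632 of all genes were. DNA replication and G1/S genes had a median difference of -0.09 (12 of 60 lower and 1 higher at an unadjusted p under 0.05, none past the threshold). In bulk libraries, fewer cells in G2 and less RNA per cell cannot be told apart.

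NRF2 antioxidant genes, with HMOX1 as a member, had a median difference of 0.15. All 26 measured were above 0, 14 at an unadjusted p under 0.05, and 5 were called higher on Mps1i in experiment 1 and 1 lower, against 19 higher and 0 lower in experiment 2. Of all genes, 604 (5.71%) were called higher on Mps1i in experiment 1 and 960 (9.08%) in experiment 2. Genes of the integrated stress response, with STC2 as a member, had a median difference of 0.14 and 13 of 33 at an unadjusted p under 0.05, all higher in experiment 2. Immediate early genes, with FOS, had 0.23 and ERK feedback genes, the phosphatases and Sprouty proteins that ERK signalling induces, had 0.22, with 13 and 8 higher and 1 and 1 lower at an unadjusted p under 0.05, of 26 and 16 measured. For all genes these counts were 698 higher and 632 lower of 10577.

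TGF-beta and activin genes had a median of 0.16 and extracellular matrix genes of 0.10, each with 0 past the threshold by edgeR. At an unadjusted p under 0.05, 9 of 24 and 5 of 42 were higher and 4 of 24 and 1 of 42 lower. With offsets for transcript length and GC content, these medians were 0.14 and 0.04. Mitochondrially encoded genes had a median response of -0.24 in experiment 1 and -0.01 in experiment 2, with 6 of 13 called lower in the first (5.67% of all genes) and 0 in the second (8.12% of all genes). Glycolysis and hypoxia-response genes, with ANGPTL4, had a median difference of 0.04, with 27 of 35 above 0. At an unadjusted p under 0.05, 10 of the 35 were higher and 0 lower. NF-kB targets and inflammatory genes, with CXCL8 and IL11, had median responses of 0.37 and 0.39 and a median difference of 0.05. Of the 15 measured, 10 were above 0 and 5 below, with 3 higher and 1 lower at an unadjusted p under 0.05.

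The p53 targets responded with similar medians. Of 37 measured, 31 were called higher in experiment 1 (5.71% of all genes) and 30 in experiment 2 (9.08% of all genes), with median log2 fold changes of 0.59 and 0.66, and the median difference of 0.04 had 3 genes higher and 2 lower at an unadjusted p under 0.05 and 0 past the threshold by edgeR. Heat shock and chaperonin genes had a median difference of -0.10, with 7 of 28 lower and 0 higher at an unadjusted p under 0.05, and splicing factor genes of -0.05, with 13 of 48 lower. Ribosomal protein genes had 0.03. Over all genes, the responses of the experiments correlated with r = 0.447 across 10577 genes, which share libraries and are not independent.

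**Figure D5:**
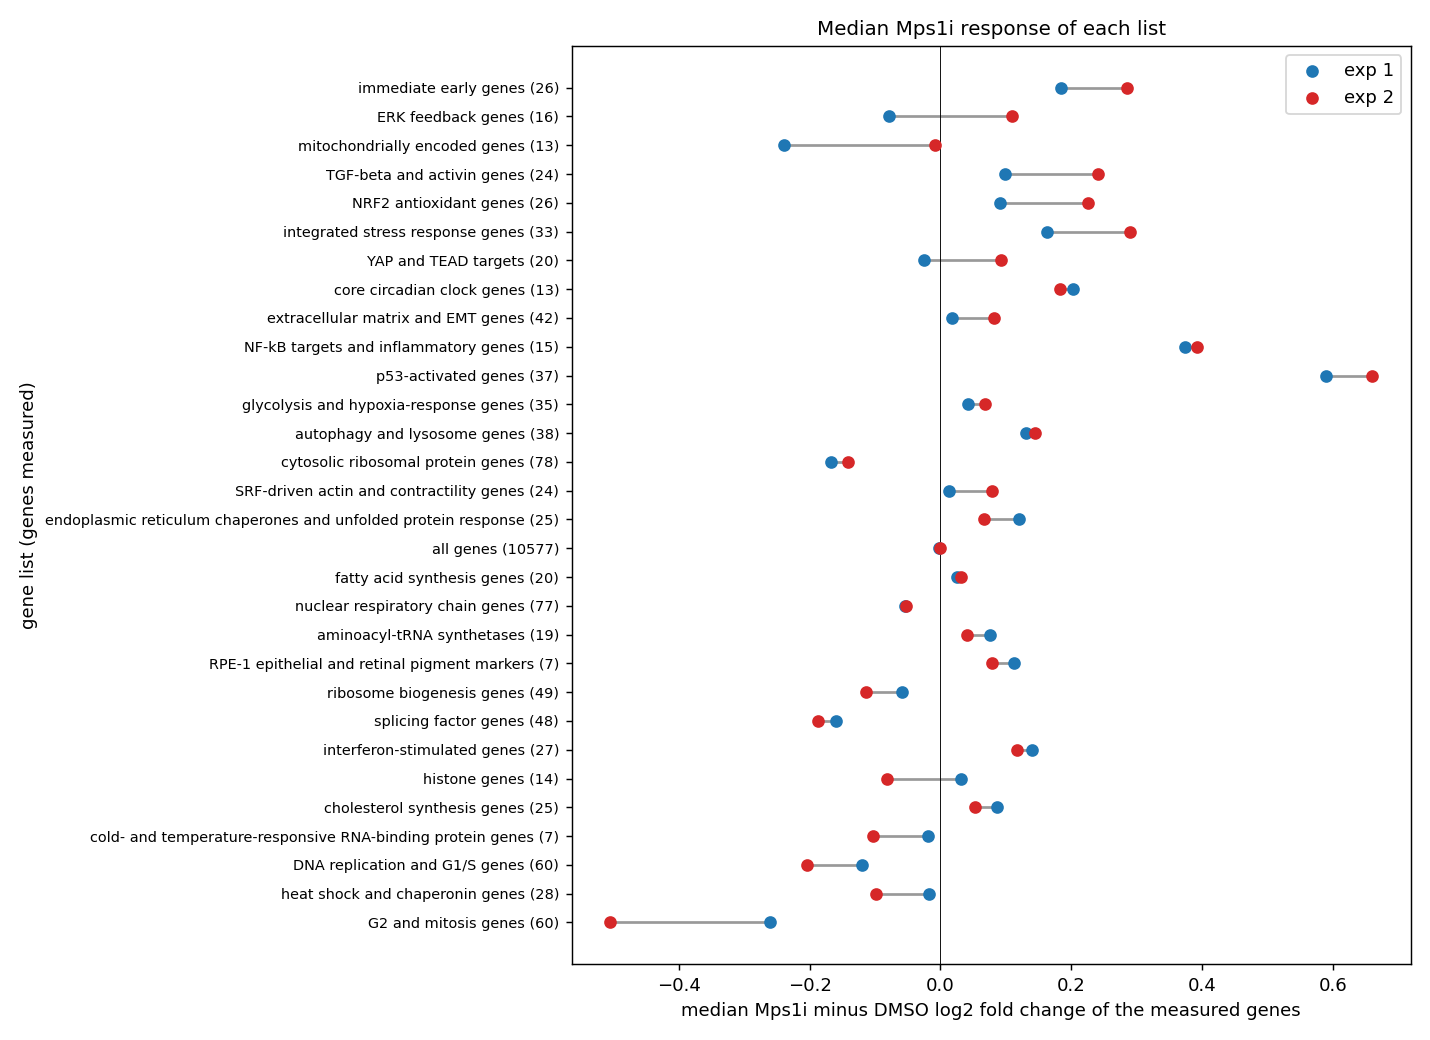
Median log2 fold change of Mps1i over DMSO in experiment 1 (blue) and experiment 2 (red) for each gene list with at least 7 genes measured, ordered by the median difference of the responses. G2 and mitosis genes at the bottom are the furthest apart (-0.26 and -0.50), and p53-activated genes are high in both (0.59 and 0.66).

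RGPD5 had the largest difference, 3.68 ± 0.571 on the log2 scale, and is uncertain. It belongs to a family of near-identical copies related to the nuclear pore protein RANBP2, between which reads cannot be divided safely. RGPD5 was at 6.73 and 12.4 CPM in DMSO and at 0.915 and 0.618 CPM in Mps1i in experiment 1, and at 4.82 to 9.32 CPM in experiment 2. RGPD6 moved the other way in experiment 1, from 10.99 and 5.21 to 16.1 and 15.2 CPM. With the counts of RGPD5, RGPD6 and RGPD8 summed, an alternative chosen after seeing the data, the 8 libraries lay between 20.0 and 25.6 CPM and the difference was 0.08 ± 0.124 (adjusted p = 0.850 by edgeR).

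ENSG00000262599 and ENSG00000226882 are identifiers outside the primary annotation and have no symbol here. ENSG00000262599 was at 0.891 and 1.41 CPM in the DMSO libraries of experiment 1 and at 6.21 to 7.77 CPM in the other 6, and ENSG00000226882 at 4.004 and 8.43 CPM in the Mps1i libraries of experiment 1 and at 21.5 to 27.5 CPM in the other 6. In both, 1 group of experiment 1 stood apart from the rest.

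The threshold fell among like values. NDC80, ZNF777 and HMGB2 lay just inside (adjusted p from 0.0469 to 0.0472), and TOR4A, KIF20A and DVL1 just outside (0.0641 each), with differences of 0.51, -0.41 and 0.37. In all 38 members the responses of experiment 1 did not overlap with those of experiment 2 over the pulse pairs, as they did not in 4809 of all genes (45.5%). The choice used these same pulse pairs, so the count for the members describes the choice without supporting it. Of the 52 genes whose difference exceeded 0.58 on the log2 scale in both pulse pairs with one sign, 25 were members.

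The MN libraries are the measure here that the choice of genes did not use. Both experiments were done with Mps1i, and 3602 of 10594 genes (34%) differed between experiment 4 and experiment 3. Among the 17 genes with a higher response in experiment 2, 10 were called, all 10 higher in experiment 4. Among the 21 with a higher response in experiment 1, 6 were called, 2 of them higher in experiment 4, and neither count was tested against that of all genes.

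ADGRG1 had the widest step, from 30.3 to 37.9 CPM in the 4 libraries of experiment 3 to 54.2 to 65.8 CPM in those of experiment 4 (0.84 ± 0.0878 on the log2 scale, adjusted p = 0.000203 by edgeR). ESM1 was higher by 0.64 ± 0.159, CXCL8 by 0.56 ± 0.105, STC1 by 0.39 ± 0.0659 and STC2 by 0.22 ± 0.0499, while TXNIP fell by 0.68 ± 0.0825 on the log2 scale, from 148 to 189 CPM to 87.7 to 117 CPM. HMOX1 differed by -0.07 ± 0.0733 and FOS by 0.21 ± 0.284, neither past the threshold. FOS varied from 18.3 to 50.9 CPM among these libraries, and its ranges in the experiments overlapped. RNF19B, TRIO and GNAS, called in all 8 fits that left out a library, had differences of 0.00 ± 0.125, -0.08 ± 0.0839 and -0.02 ± 0.0842.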

How the data were processed

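The deposited tables give each gene's estimated count as a whole number, made by the authors with Salmon on hg38 with GC-bias correction (Salmon 1.2 and bcl2fastq 2.20 in the submitters' processing notes) and tximeta. They left out genes that did not reach 700 counts in 2 samples. The 8 DMSO and Mps1i libraries, of 22 in the series and 29 deposited samples, have 1 column each, also where the labels divide a library into parts, and that such a column is their sum was read from its name. The counts carry no length offsets, and nothing below the minimum could be measured. The table of libraries sorted by rupture was not used here.

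From these counts, treatment, experiment and their product were fitted in edgeR 4.0.16 (quasi-likelihood, TMM, 4 residual degrees of freedom) under R 4.3.3. P-values were adjusted by Benjamini-Hochberg over 10577 genes, with a threshold of 0.05. An SE is the log2 fold change divided by the root of F. CPM are scaled by TMM, and differences within pulse pairs used a prior count of 2. MN libraries were fitted with MN class and experiment. Alternatives used DESeq2 1.42.0, limma 3.58.1, other filters, terms and offsets (splines with 4 degrees of freedom). The tests were tested on simulated data. Genes named were up to 12 per direction with the largest difference, up to 4 members of each list and those called with opposite signs, and the remaining members were added to account for all. The members, gene lists, motifs and tests were chosen with earlier results of these data known. Positions and transcripts come from GENCODE v44 on GRCh38, in which 297 identifiers lack a symbol, and promoters from RefSeq. Pulse lengths do not pair the libraries: deviations of DMSO and Mps1i libraries with one pulse length correlated with r = 0.0623 in experiment 1 and r = -0.132 in experiment 2. Libraries of 1 group differed by more than sampling noise (chi-square over its degrees of freedom from 14.7 to 22.9). Figures and tables used Python 3.11.15.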

Additional observations from a re-analysis of the deposited data

Results flagged for a closer look

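The 38 genes stand here because their response to Mps1i differed between the experiments by the test of the difference itself (edgeR's treatment by experiment term, adjusted p under 0.05). Values are the log2 fold change of Mps1i over DMSO in experiment 2 minus that in experiment 1. The response was higher in experiment 2 in RGPD5 (3.68), ENSG00000226882 (1.97), FOS (1.52), ESM1 (1.01), CXCL8 (0.95), HMOX1 (0.77), SERPINB2 (0.68), G0S2 (0.65), IL11 (0.65), NAV3 (0.62), STC2 (0.60), ADGRG1 (0.53), AMIGO2 (0.49), ANGPTL4 (0.46), SLC20A1 (0.38), STC1 (0.35) and ALAS1 (0.35). It was higher in experiment 1 in ENSG00000262599 (-2.45), RNF19B (-1.35), NFIX (-1.32), HECA (-1.28), GNA11 (-1.06), BRD1 (-1.05), SDC3 (-1.03), CTDSPL (-1.02), USP7 (-1.02), ZNF777 (-0.97), CARM1 (-0.96), TRIO (-0.92), CHSY1 (-0.87), KANSL1 (-0.87), GNAS (-0.78), LXN (-0.61), PKP2 (-0.54), TXNIP (-0.52), HMGB2 (-0.51), CENPF (-0.33) and NDC80 (-0.33). The value of RGPD5 is lost when it is summed with its near-identical copies. Groups of 2 libraries are too small to look for single libraries far from the others.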

How the results depend on the processing

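The edgeR count of 38 genes whose response differed between experiments was 248 with the DESeq2 likelihood ratio test, 64 among genes with 700 counts in every library, 24 with pulse length as a term, 81 with length and GC offsets, and, chosen after seeing the data, 70 with length offsets alone and 84 with the GC-rich window added. Pulse lengths pair the libraries by number only: with a replicate block the count was 15, with 12 of the 38 members called, and with the block and length and GC offsets it was 74, with 35 called. Leaving out each library in turn gave 12 to 99 genes, with 11 to 36 of the members called, and 11 to 174 with length and GC offsets. Offsets gave 1843 genes responding in experiment 1 and 914 differing between DMSO levels. Leaving out a library gave 466 to 1026 genes for the response in experiment 1 (of 1204), 568 to 2234 in experiment 2 (of 1819), 136 to 591 for DMSO levels (of 559), 97 to 1770 for Mps1i levels (of 1325) and 2527 to 4548 in the MN libraries (of 3602). The lowest were without the 800 ms Mps1i library of experiment 1 (466), the 800 ms Mps1i library of experiment 2 (568 and 97) and the 200 ms DMSO library of experiment 2 (136). A lone library left in a group is taken to vary like the others. The cause of these shifts was not tested, and some of the fits also held fewer samples or genes. No member changed direction in any alternative. For either pulse pair alone this was fixed in advance, since one direction in both pairs was a condition of the choice. The other alternatives refitted the libraries that chose the genes, so a kept direction in them adds no support. Of the 38, 11 passed in all of the 13 other alternatives that had a value for them. DESeq2 size factors (36 genes), limma-voom (44), identifiers of the primary annotation (56) and GC offsets alone (43) moved the count by less than 1.5 times. The filterByExpr filter, counted among the 13 alternatives, removed no gene, so its 38 genes repeat the main fit. The chi-square between libraries of 1 group was 14.7 to 22.9 times its degrees of freedom, a spread above the counting error that depth sets.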
